A study of Mus musculus with 6 samples.

Results

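The 32 genes described here encode the voltage-gated calcium and sodium channels of the mouse nucleus accumbens (NAc), their accessory subunits, the calcium release channels of the endoplasmic reticulum and the calcium pumps of the plasma membrane. They were chosen by name. All entries of the 6 event lists that carried the GENCODE M21 identifier of one of these symbols were taken, which gave 783 distinct transcript events out of the 132823 of the series, in 32 of the 16154 listed genes. The libraries were made from total RNA of the NAc of adult male C57BL/6N mice that had gone through conditioned place preference training, in which a place is paired with an injection. In 3 libraries the animals had received saline and in 3 libraries morphine, and no further genotype or agent differed between the groups. The sources differ on pooling, since the series description counts more mice than samples while the study's figure text ties each sample to 1 animal. P-values therefore measure the spread between these libraries, which may be partly technical. An event is an entry on the exon and intron structure of the transcripts that were assembled from the reads of 1 library. Events were of 4 families, namely exon skipping, intron retention, alternative exon ends, and transcript ends, which hold transcript starts and terminations. Transcript ends need not be alternatives. In every library, Scn2b and Scn4b were listed with 1 start and 1 termination and no other event. The lists give no read number for an event, so an event is listed or not listed, and nothing here is a level of expression. For the same reason, fewer cells of a type and less RNA per cell cannot be told apart in these tissue libraries.

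Voltage-gated calcium channels open when a neuron is depolarised and let in the calcium that triggers transmitter release, shapes firing and signals to the nucleus. Each has a pore-forming alpha subunit, coded by the Cacna1 genes. In the high-voltage channels this pore is joined by a cytoplasmic beta and an extracellular alpha2delta subunit. Sodium channels, coded by the Scn genes, carry the upstroke of the action potential. Ryanodine and IP3 receptors release calcium from the endoplasmic reticulum, and the plasma membrane pumps coded by the Atp2b genes expel it from the cell. The long pore and receptor transcripts are known for extensive alternative splicing, which changes gating, modulation and binding of calmodulin.

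Exons skipped in nearly every library are shown first, because exon skipping had the largest share of events in all 6 libraries (24.1%). By number, 55 of the 87 member events in all 6 libraries were transcript ends and 19 were exon skipping. 19 single skipped exons in 14 genes were listed with exact ends in at least 5 of the 6 libraries, 15 of them in all 6 and 4 in 5. Skips listed with inexact ends form a class of their own and are not counted among them. In at least 5 libraries that class held the 63-nt exon of Cacna1b again, in all 6, and an unannotated 80-nt exon of Cacna2d3 (chr14:28907988-28908067), in 5. Their lengths ran from 18 to 191 nt, 16 were fully coding and 13 of those were a multiple of 3 nt long, so that they can be left out without a shift of the reading frame. In the lines that follow, capitals mark the skipped exon and lower case the 9 bases of each neighbouring exon, read 5′ to 3′ on the strand of the gene from the GENCODE M21 transcripts, with positions on GRCm38. The 8 exons below are in-frame coding exons of the channel pores, of the alpha2delta subunits and of the IP3 receptor.
Cacna1a, 36 nt, exon 44 of 47, chr8:84635549-84635584, plus strand: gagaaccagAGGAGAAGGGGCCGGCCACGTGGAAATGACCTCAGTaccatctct
Cacna1b, 63 nt, chr2:24682976-24683038, minus strand: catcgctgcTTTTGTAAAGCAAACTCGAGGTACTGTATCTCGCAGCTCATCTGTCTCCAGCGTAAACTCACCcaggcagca
Cacna1d, 60 nt, exon 11 of 49, chr14:30129789-30129848, minus strand: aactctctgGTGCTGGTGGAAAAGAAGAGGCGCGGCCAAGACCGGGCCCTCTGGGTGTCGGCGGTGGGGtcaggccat
Cacna1g, 69 nt, exon 14 of 38, chr11:94439709-94439777, minus strand: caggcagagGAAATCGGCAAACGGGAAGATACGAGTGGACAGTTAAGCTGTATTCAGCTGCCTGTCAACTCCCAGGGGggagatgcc
Cacna2d1, 21 nt, exon 24 of 40, chr5:16341990-16342010, plus strand: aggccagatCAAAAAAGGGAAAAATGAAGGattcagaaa
Cacna2d2, 21 nt, exon 23 of 39, chr9:107519179-107519199, plus strand: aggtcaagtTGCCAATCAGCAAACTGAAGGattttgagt
Cacna2d3, 18 nt, exon 14 of 38, chr14:29124666-29124683, minus strand: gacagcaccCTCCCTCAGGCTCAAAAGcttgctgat
Itpr1, 45 nt, exon 12 of 62, chr6:108365299-108365343, plus strand: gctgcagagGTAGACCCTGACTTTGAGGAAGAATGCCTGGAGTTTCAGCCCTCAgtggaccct

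The Itpr1 exon lies in the known splice region of the IP3-binding part of the receptor. All of these exons were skipped in all 6 libraries except the 18-nt exon of Cacna2d3, which was listed in saline 2, saline 3 and all 3 morphine libraries and not in saline 1. Cacna2d1 and Cacna2d2 code for alpha2delta subunits, which carry the channel to the cell surface and bind gabapentin. Their microexons are of the same length and matched at 12 of 21 bases without gaps (57.1%). Among all 49 single skipped exons of the 32 genes the median length was 64 nt, against 104 nt for the 8834 single skipped exons of the series, and 10 of the 49 were at most 27 nt long (20.4%, against 5.26% in the series). A length that is a multiple of 3 was found for 31 of 49 (63.3%, against 51.2%). For the exons skipped in all 6 libraries that share was 66.7% (10 of 15) over the members and 69.6% (1487 of 2135) over all genes. These shares are descriptions, since exons of one gene are not replicates.

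The plasma membrane calcium pumps had the densest set of reproducible exons. The exons at their carboxyl end (splice site C) interrupt the part that binds calmodulin, and they are shown because the same site was listed in all 4 pump genes. Capitals and lower case are as before.
Atp2b1, 154 nt, chr10:99019278-99019431, plus strand: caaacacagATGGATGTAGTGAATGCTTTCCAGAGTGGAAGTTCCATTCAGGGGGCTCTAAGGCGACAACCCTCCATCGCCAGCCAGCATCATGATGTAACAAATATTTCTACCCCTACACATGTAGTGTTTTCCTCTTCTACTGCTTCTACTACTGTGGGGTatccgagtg
Atp2b3, 154 nt, exon 21 of 22, chrX:73559864-73560017, plus strand: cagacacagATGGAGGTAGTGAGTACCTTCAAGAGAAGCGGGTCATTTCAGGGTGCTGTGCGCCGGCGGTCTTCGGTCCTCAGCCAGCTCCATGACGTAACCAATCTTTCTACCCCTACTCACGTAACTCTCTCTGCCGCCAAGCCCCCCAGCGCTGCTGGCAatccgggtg
Atp2b4, 181 nt, exon 20 of 21, chr1:133711642-133711822, minus strand: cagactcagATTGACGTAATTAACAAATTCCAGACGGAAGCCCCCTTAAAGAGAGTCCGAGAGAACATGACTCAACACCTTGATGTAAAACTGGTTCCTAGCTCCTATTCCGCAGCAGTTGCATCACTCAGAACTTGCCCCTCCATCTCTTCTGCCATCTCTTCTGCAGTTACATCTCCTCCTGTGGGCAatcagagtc
Atp2b3, 42 nt, exon 7 of 22, chrX:73533885-73533926, plus strand: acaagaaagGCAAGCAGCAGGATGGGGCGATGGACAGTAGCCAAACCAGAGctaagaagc

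In Atp2b1, an 87-nt and a 154-nt form of the site C exon were both listed in all 6 libraries. They begin at the same base, and the longer adds 67 nt at its 3′ end. In the next line the lower case part is the 87-nt form and the capitals are the added bases.
Atp2b1, 87 and 154 nt: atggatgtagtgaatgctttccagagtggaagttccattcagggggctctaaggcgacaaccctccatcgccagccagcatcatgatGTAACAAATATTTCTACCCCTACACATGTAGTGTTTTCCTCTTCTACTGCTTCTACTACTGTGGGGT
The 154-nt exons of Atp2b1 and Atp2b3 matched at 98 of 154 bases without gaps (63.6%). Lengths of 154 and 181 nt are not multiples of 3, whereas 87 nt is. Atp2b4 had a 181-nt and a 191-nt form, with a common end and both in all 6 libraries, and the 191-nt form reaches beyond the coding sequence. The 42-nt exon of Atp2b3 lies at splice site A, near the phospholipid-binding part of the first cytoplasmic loop, and was skipped in all 6 libraries. Atp2b2 was listed with a joint skip of several exons at site A (chr6:113797110-113803779) and another at site C (chr6:113751636-113755388), again in all 6. The joint skip at site C, unlike that at site A, was not at annotated positions. A 36-nt exon of Atp2b4 (chr1:133736616-133736651) was listed in the 3 saline libraries and in morphine 2.

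Some calcium channel pore genes hold neighbouring exons of equal length of which a transcript carries one. The 12 event classes contain none for such exclusive pairs, so their exons were looked up among single skips with exact or inexact ends. Pairs of 97 nt lie in Cacna1a and Cacna1e, where 60 and 61 of 97 bases were identical (61.9% and 62.9%). The downstream Cacna1a exon was listed in saline 1 and morphine 1 and the upstream Cacna1e exon in morphine 1. A pair of 84 nt in Cacna1d was identical at 51 bases (60.7%), with the upstream exon listed in saline 1 and morphine 1 and the downstream one in morphine 2. None of these 3 pairs had a single skip in every library of a group. Their exons also took part in events of other classes. As alternative exon ends, the upstream Cacna1d exon was listed in saline 1 and saline 3 and the downstream one in saline 3. In saline 2, joint skips of several Cacna1a exons ended at each exon of its pair.

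**Figure D1:**
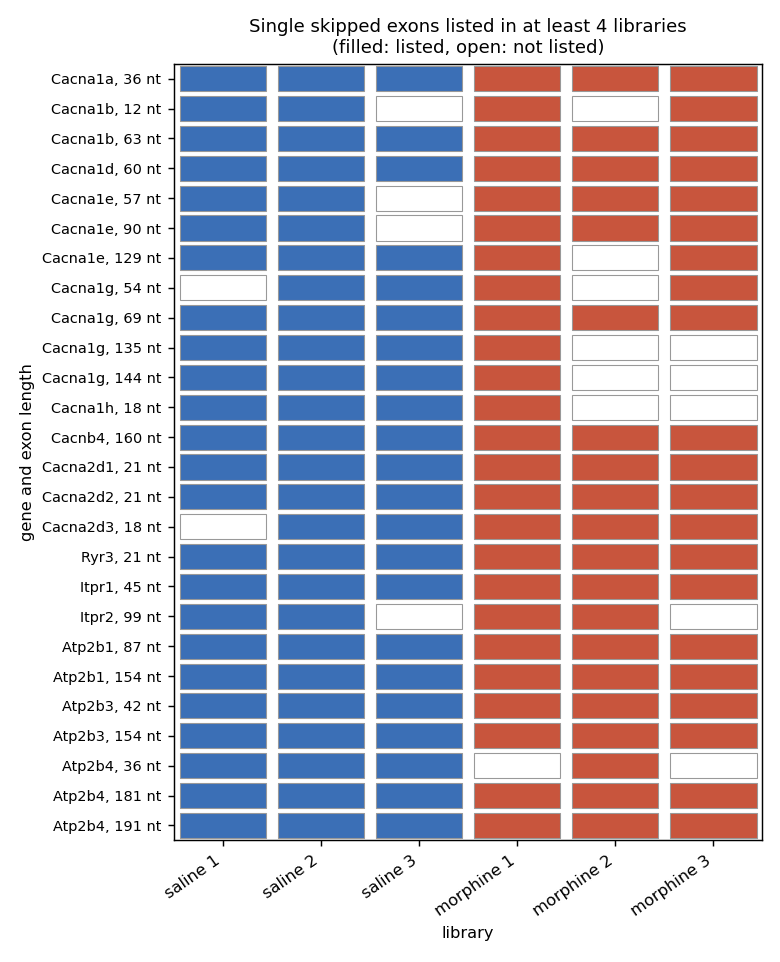
Single skipped exons of the 32 genes that were listed in at least 4 of the 6 libraries, 1 row for each of the 26 exons (gene and length in nt) and 1 column for each library. Blue (saline) and red (morphine) cells are listed and open cells are not, and 15 rows are filled throughout.

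The plot of skipped exons by library shows 26 exons, of which 7 were in 4 libraries. The high-voltage pore gene Cacna1e, which codes for R-type channels, had 3 exons in 5 libraries. Its 57-nt exon (chr1:154473857-154473913) and its 90-nt exon (chr1:154488044-154488133) were not listed in saline 3, and its 129-nt exon (chr1:154404885-154405013) was not listed in morphine 2. All 3 are coding and in frame. In the T-type pore gene Cacna1g, the 135-nt and 144-nt exons (chr11:94413090-94413224 and chr11:94414931-94415074) were each listed with exact ends in the 3 saline libraries and morphine 1. With inexact ends the 144-nt exon was also listed in morphine 3. Skipping of both together was listed in all 6 libraries, so only the single-exon forms varied between libraries. Also listed in all 6 libraries were the 160-nt exon of Cacnb4, a beta subunit gene, which is partly coding (chr2:52556202-52556361), and a 21-nt exon of the ryanodine receptor gene Ryr3 (chr2:112989820-112989840). The latter lies in an annotated transcript that is not coding. An 18-nt exon of Cacna1h (chr17:25382720-25382737), another T-type pore gene, matched no annotated exon and was listed in the 3 saline libraries and morphine 1.

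Next, the number of member events per library was compared between the groups, to ask whether transcript structure of these genes differed after morphine. No family differed beyond the spread between libraries. With 3 libraries against 3, the smallest p an exact permutation test can give is 0.1, so the design cannot reach 0.05. Exon skipping events numbered 44, 46 and 33 in saline libraries 1 to 3 and 41, 32 and 34 in morphine libraries 1 to 3. The means were 41 ± 7 and 35.7 ± 4.73 (SD, n = 3 each, two-sided exact permutation p = 0.3, Benjamini-Hochberg 0.8 over 4 families), and the groups overlapped. Intron retention events numbered 93, 66 and 60 in saline and 118, 58 and 49 in morphine. Here morphine held both the highest and the lowest libraries, with means of 73 ± 17.6 and 75 ± 37.5 (SD, n = 3 each, exact p = 1, adjusted p = 1). Alternative exon ends numbered 55, 52 and 44 in saline and 78, 24 and 35 in morphine. Again the morphine libraries lay on both sides of the saline libraries (50.3 ± 5.69 and 45.7 ± 28.5, SD, n = 3 each, exact p = 0.9, adjusted p = 1). Transcript starts and terminations together numbered 117, 129 and 119 in saline and 126, 111 and 99 in morphine, and overlapped (122 ± 6.43 and 112 ± 13.5, SD, n = 3 each, exact p = 0.4, adjusted p = 0.8).

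Over all families the totals were 309, 293 and 256 events in saline and 363, 225 and 217 in morphine, or 286 ± 27.2 and 268 ± 82.1 (SD, n = 3 each, exact permutation p = 0.8). Morphine 1 stood apart from the other morphine libraries. Without it, the difference in means, morphine minus saline, went from -17.7 to -65 events. As a share of all events of the library, the members took 0.531%, 0.536% and 0.448% in saline and 0.584%, 0.372% and 0.381% in morphine (exact permutation p = 0.4, n = 3 each).

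**Figure D2:**
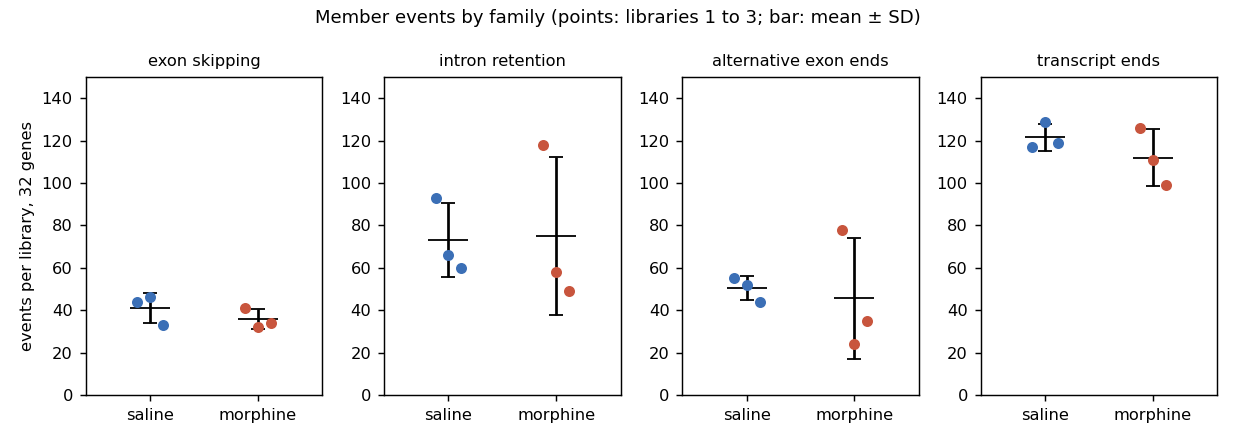
Events of the 32 genes per library in the 4 families, each panel from 0 to 150 events. Points are libraries 1 to 3 of the group and bars are the mean ± SD. Saline and morphine points overlap in every panel, and the morphine bars of intron retention and alternative exon ends are the longest.

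Depth differed between the libraries. Relative to saline 1, it was 1.07 in saline 2, 1.37 in saline 3, 1.20 in morphine 1, 1.59 in morphine 2 and 1.29 in morphine 3, as estimated from counts and FPKM in the table of lncRNA transcripts, and the absolute depth is unknown. The series held 54660 to 62209 events in 14243 to 14956 genes per library. Over all genes, more exon skipping events were listed in deeper libraries (r = 0.915, rho = 0.943, n = 6, given as a description), whereas the members went the other way. Their 44 and 46 skipping events were in the libraries of lowest depth, and their 32 were in the deepest. Across the 6 libraries, member exon skipping fell with depth with r = -0.901 (exact permutation p = 0.00972, adjusted over 5 relations 0.0486) and rho = -0.943 (exact permutation p = 0.0167, adjusted 0.0833). Leaving out saline 1 and morphine 2, the libraries farthest from the median depth, gave r = -0.976. The other relations were weaker, with r = -0.480 for intron retention (exact permutation p = 0.333), -0.660 for alternative exon ends (p = 0.151), -0.439 for transcript ends (p = 0.390) and -0.632 for all families (p = 0.175). Saline 1 and saline 2 had the lowest depth and morphine 2 the highest, so depth and group were not independent. The permutations for depth treated the 6 libraries as 1 set, across the groups. Relations to depth were not among the planned tests. No sequencing batch was labelled, and the part of depth in the differences between the groups was not tested.

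**Figure D3:**
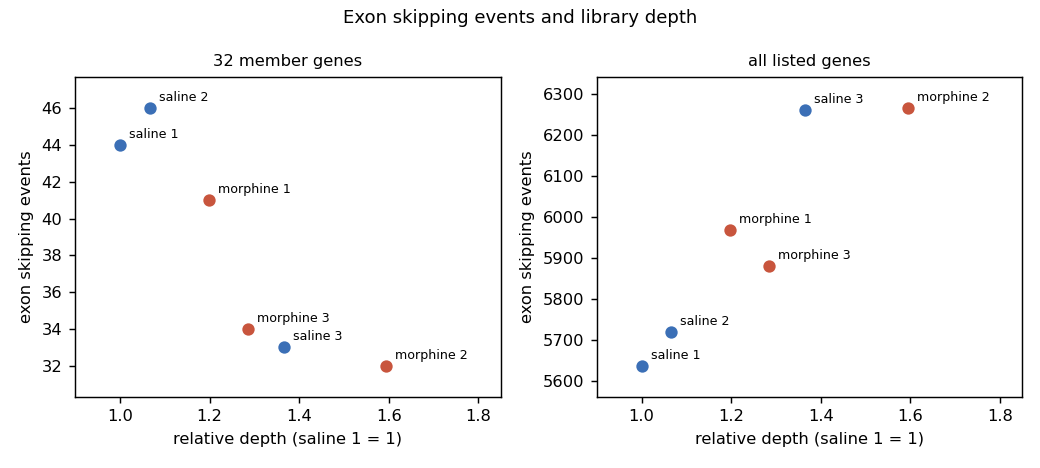
Exon skipping events per library (vertical axes, which do not start at 0) against relative depth, with saline 1 set to 1, for the 32 genes (left) and for all listed genes (right). Each point is a library, and the points fall with depth on the left and rise on the right.

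All 32 members were listed in all 6 libraries, entries on either strand included. For Scn4b in most libraries and Scn2b in 1 library, the listing rested on opposite-strand entries alone, as given below. The median number of events per gene and library was 5.58 over the 32 members, against 2.67 over all listed genes. These numbers include transcript starts and terminations, of which a gene can have 1 each without any alternative. The mean number of events rose with the number of exons (Spearman rho = 0.335) and with the genomic span (rho = 0.430) across the 32 genes, which is a description only. The 6 members with the most events held 492 of the 783 (62.8%) and 78.9% of the intron retention events. In these 6 genes the libraries held 155, 151 and 139 events in saline and 209, 98 and 89 in morphine. The other 26 members held 154, 142 and 117 in saline and 154, 127 and 128 in morphine, so that morphine 1 was the highest library in the first set and equal to saline 1 in the second.

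Of the high-voltage calcium channel pores, Cacna1a, which codes for the P/Q-type channel of transmitter release, had 30, 28 and 19 events in saline and 55, 20 and 12 in morphine. Its 38 distinct intron retention events were listed 15, 12 and 6 times in saline and 27, 8 and 3 times in morphine. Cacna1b, the N-type pore of presynaptic terminals, had 21, 38 and 13 events in saline and 32, 14 and 16 in morphine. In both genes the groups overlapped. Cacna1d, an L-type pore that opens at less depolarised potentials, had 18, 9 and 20 events in saline and 26, 16 and 17 in morphine. Cacna1e had 18, 26 and 6 events in saline and 56, 6 and 8 in morphine, with 25 of the 56 being intron retention. Morphine 1 was thus the highest library for Cacna1a, Cacna1d and Cacna1e but not for Cacna1b. The remaining L-type pore gene of the list, Cacna1c, ran from 2 events in saline 3 to 16 in saline 1, with 4 to 7 in morphine.

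Among the T-type pores, which open near the resting potential, Cacna1g had 14, 14 and 21 events in saline and 27, 10 and 22 in morphine. Cacna1h had 2 to 10 and Cacna1i 6 to 13 events, with saline 1 the highest in both. The beta subunits, which bring the pore to the membrane, had few events. Cacnb1 and Cacnb3 were listed with 3 events in each of the 6 libraries, Cacnb2 had 5 to 9 and Cacnb4 4 to 9. For Cacnb2 the 3 saline libraries had 5, 6 and 5 events and the morphine libraries 9, 9 and 6, which touch at 6. The alpha2delta genes had 3 to 5 events per library, and Cacna2d2 had 3 in every library.

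Of the sodium channel pores, Scn3a stood out. This gene, known for its high expression in the immature brain, had 58, 9 and 28 events in saline and 6, 21 and 21 in morphine. Intron retention made up 31 of the 58 events of saline 1 and 1 of the 6 of morphine 1, and the groups overlapped, with a wider spread in saline (SD 24.7) than in morphine (SD 8.66, n = 3 each). Scn1a, Scn2a and Scn8a, the main pores of the adult brain, had 3 to 7 events per library. The beta subunit genes Scn2b, Scn3b and Scn4b, whose products anchor the channel and shape its gating, gave 7 events together in every library. For Scn4b, whose product takes part in resurgent current, those 2 events were on the strand of the gene and at annotated positions only in saline 2 and morphine 3. In the other 4 libraries they were on the opposite strand, at unannotated positions inside the gene. Scn2b was listed in this way in saline 1 alone. Only 6 of the 783 member events were on the other strand than their gene.

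Ryr3, the ryanodine receptor found widely in brain, had the most distinct events of all members (116). It had 10, 41 and 53 events in saline and 34, 21 and 15 in morphine, so its lowest and its highest libraries were both saline. 85 of its events were in a single library. Ryr1, the skeletal muscle type, had 3 to 10 and Ryr2, the cardiac and main neuronal type, 3 to 11. The IP3 receptor genes had 2 to 5 events. The pumps had 4 to 10, and no more than 1 intron retention event was found in any of them over all libraries. In the pump genes as a set, 32, 32 and 27 events were listed in saline and 25, 26 and 25 in morphine. The sums did not overlap, with 1 event between the groups. This held for no other of the 9 roles, was seen only after the values were known, and was not tested. In no single pump gene were the groups apart, and Atp2b3, with 7, 5 and 7 events against 4, 5 and 4, overlapped at 5.

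**Figure D4:**
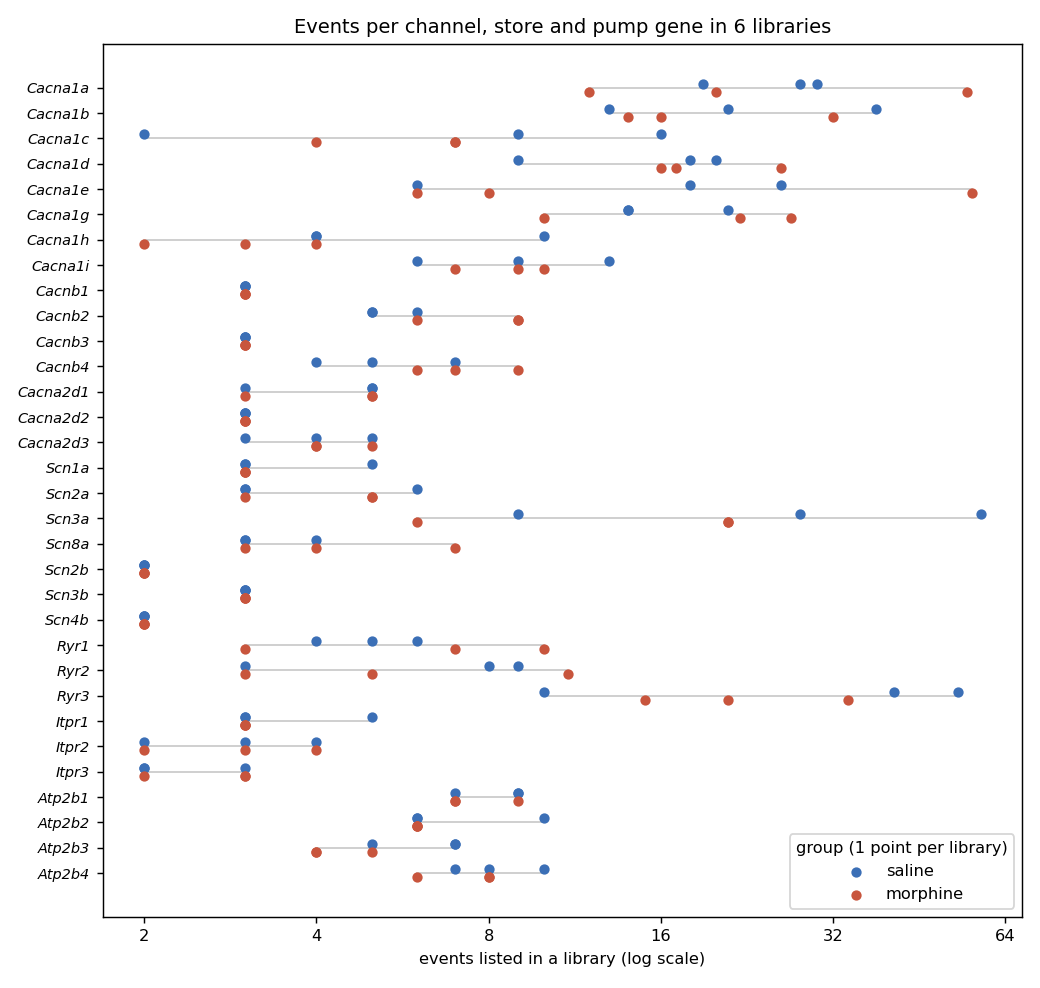
Events per gene and library (horizontal axis, log scale) for the 32 genes in order of role, with 1 point per library and a grey line from the lowest to the highest. Points that coincide overlie each other. Saline (blue) and morphine (red) points overlap in every gene, and the line is longest, as a ratio of highest to lowest, for Scn3a, Cacna1e and Cacna1c.

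No member gene had event numbers that differed without overlap between the groups (0 of 32), where 2.77% of all listed genes did (1.8% higher and 0.966% lower in morphine). Of single events, 2 of 783 (0.255%) were in all 3 saline libraries and in no morphine library, and 0 were in all 3 morphine libraries and in no saline library. Over the whole series 0.277% of events were of the first kind, 0.381% of the second and 0.658% of either, so the members were near or under the background. Both saline-only events were in Cacna1a. The first was a retained intron, intron 11 of 46 (chr8:84544784-84548508, 3725 nt), which is annotated. The second was a transcript start whose first exon ended at the end of exon 39 of 47 (chr8:84629710), where no annotated transcript begins. Starts of Cacna1a varied widely, with 8, 9 and 9 in saline and 12, 10 and 5 in morphine, and only 1 was in all 6 libraries. A further 8 events (1.02%) were listed in the 3 saline libraries and 1 morphine library, against 0.856% of all events of the series. Only 1 event (0.128%), a transcript start of Scn2a, was listed in the 3 morphine libraries and 1 saline library, against 0.958%. Events of one gene are not independent, and the difference between these shares was not tested. The 8 were in Atp2b4, Cacna1g, Cacna1h, Cacnb1, Itpr3 and Scn3a, and include the 4 skipped exons given above for the first 3 genes. They also include the same 1620-nt multiple intron of Scn3a in 2 forms, so they are not 8 separate structures.

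Retained introns recurred less than skipped exons. Of 270 intron retention events, 4 (1.48%) were in all 6 libraries, against 19 of 79 exon skipping events (24.1%). The corresponding shares over all genes were 1.70% and 19.7%. The 144 single retained introns had a median length of 1572 nt, against 762 nt over all genes. The 4 in all 6 libraries were intron 9 of 46 of Cacna1a (chr8:84536459-84537438, 980 nt), intron 46 of 48 of Cacna1d (chr14:30045337-30047207, 1871 nt), intron 88 of 103 of Ryr3 (chr2:112653787-112654438, 652 nt) and intron 3 of 26 of Scn3a (chr2:65529480-65530803, 1324 nt).

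Another 16 intron retention events were in 4 or 5 libraries, and the 20 together fell in 6 genes. In Ryr3, introns 96 and 97 of 103 (337 and 326 nt) were retained in every library but saline 1, and their joint retention was missing in morphine 3 as well. In Cacna1b, intron 11 of 46 (3514 nt) was missing only in morphine 3, and intron 27 (1685 nt) in saline 1 and morphine 3. In Cacna1c, an unannotated intron of 4487 nt (chr6:119052706-119057192) was missing only in saline 3, and intron 6 of 48 (5802 nt) in saline 3 and morphine 1. For Cacna1a, the retention of intron 5 of 46 (4252 nt) was missing in saline 2 and morphine 3, as was an entry for intron 9 with inexact ends, while a span of 2748 nt (chr8:84633764-84636511), listed both as a single and as a multiple intron, was missing in saline 3 and morphine 3. For Cacna1d, a multiple intron of 12778 nt was missing in saline 2 and morphine 3. In Scn3a, intron 12 of 26 (1182 nt) and a shorter form of it (1086 nt) were missing in saline 2 and morphine 1. A multiple intron of 1620 nt of the same gene was missing in morphine 1 and morphine 3, and was listed in 2 forms. Morphine 3 lacked 10 of these 16 and morphine 2, which held nearly as few member events in all, lacked 0.

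The number of stable transcript starts varied between the members. A single start is not an alternative. Of the 32 genes, 15 had 1 start that was listed in all 6 libraries, 6 had 2, 2 had 3, and 9 had none. Those with 3 were Atp2b2 and Cacnb2. In Atp2b2 the later stable starts lay 107 and 151 kb downstream of the first, and in Cacnb2 135 and 269 kb downstream. The beta subunit genes are known for alternative first exons that set membrane targeting. Those with 2 stable starts were Atp2b1, Cacnb3, Cacnb4, Scn1a, Scn3b and Scn8a, at distances from 0.325 kb in Scn8a to 118 kb in Cacnb4. All of these starts ended their first exon at an annotated position. Among the pore genes with many events, Cacna1a, Scn3a and Cacna1g had 1 stable start each. Cacna1b, Cacna1d, Cacna1e and Ryr3, and also Itpr3, Scn2b and Scn4b, had neither a start nor a termination that was in all 6 libraries.

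Of all 783 member events, 87 (11.1%) were in all 6 libraries and 457 (58.4%) in 1, against 20.5% and 50.5% over all genes. The members differed from the series most in transcript ends, of which 20.1% were in all 6 (series 29.8%) and 36.6% were at annotated positions (series 55.1%). Alternative exon ends were in all 6 libraries for 9 of 161 (5.59%, series 9.09%). These 9 were in Atp2b1 and Atp2b4 (the site C forms given above), Cacna1g (193 and 214 nt), Cacna1i (108 and 147 nt) and Scn3a (201 nt). Of the 87 events in all 6 libraries, 86 were at annotated positions, whereas 243 of the 457 in 1 library were (53.2%).

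**Figure D5:**
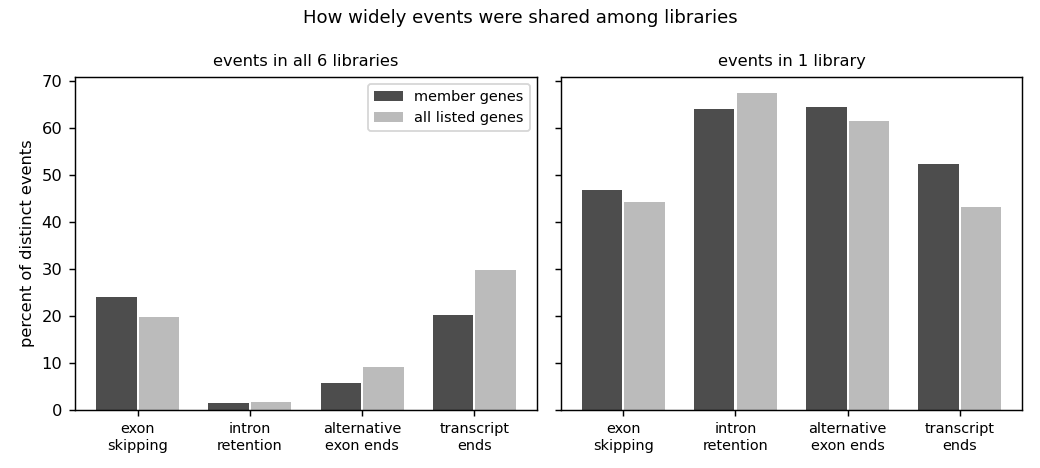
Percent of distinct events listed in all 6 libraries (left) and in 1 library (right) by family, for the 32 genes (dark bars) and all listed genes (light bars). The dark bar is above the light bar for exon skipping and below it for transcript ends in the left panel.

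A list of 46 other genes of calcium and sodium handling (further channel subunits, endoplasmic and Golgi pumps, exchangers, store-operated entry, the mitochondrial uniporter and calmodulin) was read in the same way. Of these, 37 were listed in all 6 libraries, 7 in 1 to 5 and 2 (Cacna1f and Scn4a) in none, with 430 events. Saline-only events numbered 2 (0.465%, series 0.277%), both alternative exon ends of Atp2c1, which codes for the Golgi calcium and manganese pump, and morphine-only events 1 (0.233%, series 0.381%), a transcript end of Casq1, a calcium-binding protein of the stores. Among the genes of the list described here, the groups did not overlap, with lower numbers in morphine, for 2 genes (4.35% of the 46, against 0.966% of all listed genes). Unc80, an auxiliary subunit of the sodium leak channel, had 29, 15 and 16 in saline and 11, 10 and 12 in morphine, and Atp2c1 had 8 in each saline and 5 in each morphine library.

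Marker genes gave no measure of the tissue. All markers were listed in every library for striatal projection neurons (10 genes, 33 to 37 events together in saline and 33 to 36 in morphine), oligodendrocytes (5 genes, 25 to 26 and 26), astrocytes (5 genes, 14 and 13 to 14) and microglia (5 genes, 11 to 12 in both groups). The same held for ependymal cells (3 genes, 7 and 8 to 12), cortical projection neurons (3 genes, 6 to 7 and 6 to 8) and skeletal and heart muscle (3 genes, 6 to 7 and 6), so that no marker was absent. Since the muscle myosins Myh4 and Myh6 were listed as well, a listed gene is not shown to be expressed in NAc cells to any given level. Ependymal event sums did not overlap between the groups, which held for no other marker list. No single ependymal marker was apart, and Ccdc153 had 3, 3 and 3 events in saline and 6, 7 and 3 in morphine. Over all listed genes, 2.77% did not overlap. The part of ependymal cells in the member values was not tested.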

How the data were processed

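Total RNA of the NAc was sequenced by the authors in strand-specific libraries, mapped with HISAT2 and assembled with StringTie. The build was not given in the sources used here, and 99.4% of the gene identifiers of each library were found in GENCODE M21 (GRCm38), whose positions are used. The members and lists were chosen with earlier results of these data known.

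The event files deposited by the authors list, in the layout of ASprofile, the type, gene and position of each event. Their column named fpkm, as deposited by the authors, is a score of unstated origin that held whole numbers from -25 to 0, and it was not used. Counts and FPKM deposited by the authors for lncRNA transcripts served only to estimate relative depth, over 91 values with at least 10 counts, from a weighted fit of the log of count over FPKM with transcript and library terms. The fold changes and FDR of the authors in that table were not used.

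Paired entries, 1 with and 1 without the feature, were joined to a single event. Alternative exon ends and transcript ends had no such pairs, so each listed form counted as an event. An exon could count in more than 1 family, as the site C exons of Atp2b1 and Atp2b4 did. The 20 event types became 12 classes and 4 families. Class, gene, strand and position gave an event its identity, and transcript ends were taken at their splice-side coordinate. Groups came from the treatment labels, and replicate numbers are names only. For means, two-sided exact permutation tests were used with Benjamini-Hochberg adjustment over 4 families (Python 3.11.15, scipy 1.17.1, pandas 2.3.3, numpy 2.4.6). The counting script recovered events planted in simulated lists in exactly the pattern it counts, which is a check of the code only. Events specific to a group and genes without overlap were counted, with no test, beside all events and genes. Members named were the 6 with the most events, those with group-specific events, and single exons or introns recurring in at least 5 or 4 libraries. Equal-length exon pairs at most 3000 nt apart, recurrent exons in 4 libraries, and events in 3 libraries of a group and 1 of the other were added after seeing the data. Alternatives changed the identity of events, the strand and annotation filters and the libraries used. Exons, introns and sequences came from GENCODE M21. No protein sequences were used. Some results on sodium channel genes are not reported here.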

Additional observations from a re-analysis of the deposited data

How the results depend on the processing

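Differences between group means are morphine minus saline in events per library. For exon skipping the sign held under every alternative tried. Without the 6 members with the most events, a choice made after seeing the data, its means were 27.3 in saline and 22.3 in morphine. The exact permutation p was then 0.1, the smallest the test can give. Without morphine 1, the exact permutation p was 0.1 for alternative exon ends and for transcript ends. Transcript ends went from -9.67 to 0.667 with annotated positions only. Intron retention went from 2 to -2 with the entries counted without merging, and to -0.234 percentage points as a share of all events of the family. Alternative exon ends went from -4.67 to 1 without the 6 members with the most events, an alternative chosen after seeing the data. The cause was not tested in any of these. Leaving out 1 library at a time gave -65 to 8 for all families, -9.33 to -2.83 for exon skipping, -19.5 to 15 for intron retention, -20.8 to 6.17 for alternative exon ends and -16.7 to -3.17 for transcript ends. The sign of all families changed without morphine 2 (4) and without morphine 3 (8). The sign of alternative exon ends changed without morphine 2 (6.17) and without morphine 3 (0.667). That of intron retention changed without morphine 1 (-19.5), saline 2 (-1.5) or saline 3 (-4.5). Group-specific member events numbered 1 with annotated positions only and 0 without the 6 members. With 1 library left out they numbered 8 to 14, where the share over the series was 1.66% to 2.03%, since fewer libraries must be alike. Member genes without overlap numbered 1 with annotated positions only and 0 to 3 with 1 library left out, where 5.92% to 6.71% of all genes passed. The other 62 recomputed values kept their direction, or their count. Some of them could not change, such as those limited to members listed in all 6 libraries, which were all 32 members. As no value could pass the threshold, this says nothing about the calls. No paired analysis was possible because the labels carry no shared replicate numbers.

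Groups of 3 libraries cannot reach 0.05 in the exact permutation test. The lists hold no read support, and an event that is not listed is not shown to be absent.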
